A study of Gallus gallus with 6 samples.

Results

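Integrins are the receptors through which cells hold on to extracellular matrix, and their subunit genes were compared here between posterior and anterior half-sclerotomes of the chick. Vertebrae and ribs form from the sclerotome, the ventral mesenchyme of each somite. Neural crest cells and motor axons avoid its posterior part and cross its anterior part. The groups were posterior half-sclerotomes, with 3 libraries, and anterior half-sclerotomes, with 3 libraries. Both came from wild type chick embryos (Gallus gallus) at embryonic day 3, Hamburger-Hamilton stage 18, with no treatment named. Tissue was taken from the 11th to the 23rd most recent somite, and each library was made from a pool of 100 half-sclerotomes. Whether pools came from separate embryos is not stated in the labels, so the spread behind the authors' p-values may be partly technical.

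Rows of the authors' gene table were taken when the gene symbol was ITGA or ITGB followed by a number or V and the mean of both groups was at least 5 FPKM. FPKM is a read level scaled by transcript length and by library size, so levels of different genes can be set side by side. How the libraries were scaled to each other was not stated. The rule gave 10 genes out of 17108 rows, and all 10 were among the 10529 rows that the authors tested. There were 7 alpha subunits (ITGA1, ITGA4, ITGA6, ITGA8, ITGA9, ITGA11 and ITGAV) and 3 beta subunits (ITGB1, ITGB3 and ITGB5). A further 5 integrin rows lay under 5 FPKM. The alpha subunit genes ITGA3, ITGA5, ITGA7 and ITGA10 had no row, so their levels are not known. Nearest to that limit were ITGA11 at a mean of 5.33 FPKM and ITGA8 at 7.74 FPKM inside it, and ITGA2 at 2.95 FPKM and ITGB8 at 2.02 FPKM outside it.

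An integrin is a pair of an alpha and a beta subunit, and the alpha subunit largely sets which ligand is bound. The beta1 subunit pairs with most alpha subunits, whereas alphaV also pairs with beta3, beta5, beta6 and beta8. Alpha5, alpha8 and the alphaV pairs read the RGD motif of fibronectin and related proteins, alpha6 pairs read laminins, alpha1, alpha2 and alpha11 pairs read collagens, alpha4beta1 reads fibronectin and VCAM1, and alpha9beta1 reads tenascin-C among others. In avian embryos, migrating neural crest cells use beta1 integrins to move over fibronectin and laminin.

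All levels are the authors' values, 1 per group, so no replicate error stands beside a level. The only measure of error is the q-value of the authors' deposited table, in which a gene was called at q under 0.05. Libraries were bulk tissue, so fewer cells of a type and less RNA per cell cannot be told apart. The marker genes UNCX and TBX18 went with the labels. UNCX, a homeobox gene of posterior sclerotome, was at 87.8 FPKM in posterior and 1.45 FPKM in anterior half-sclerotomes, TBX18, which marks anterior sclerotome, at 3.10 FPKM in posterior and 32.5 FPKM in anterior, and PAX1, a paired-box gene of the whole sclerotome, at 490 FPKM in posterior and 367 FPKM in anterior. Of all tested rows, 7.07% were called, with 3.57% higher in posterior and 3.50% higher in anterior. Of the 8620 tested rows at or over 5 FPKM, 6.26% were called.

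Of the 10 integrin subunits, 6 were lower in posterior half-sclerotomes, 1 was higher and 3 were not called. That is 70% called, beside 6.26% of tested rows at the same minimum level, with 3.42% higher and 2.84% lower in posterior. The 6 lower genes were ITGA4, ITGA6, ITGA8, ITGAV, ITGB3 and ITGB5, and the higher one was ITGA9. The median log2 ratio of posterior over anterior was -0.49 over the 10 subunits, against 0.01 over tested rows at or over 5 FPKM, where the quartiles were -0.12 and 0.14. The beta1 gene, by far the highest of the family, was at nearly the same level in both groups. With q = 0.00139, the lowest that the authors' deposited table reaches, 5 of the 7 called subunits are tied and cannot be ranked by it.

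**Figure D1:**
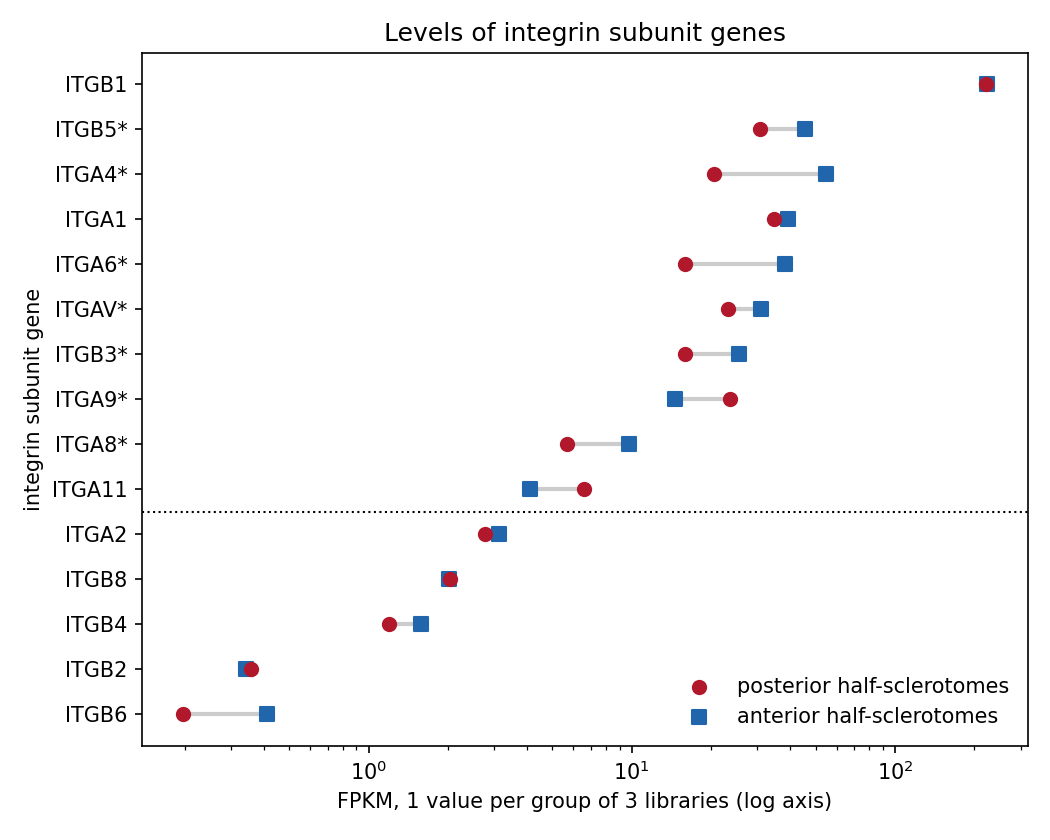
FPKM of 15 integrin subunit genes on a log axis, with posterior half-sclerotomes as red circles and anterior half-sclerotomes as blue squares, 1 value per group. An asterisk marks q under 0.05 in the authors' deposited table and the dotted line parts genes over and under a mean of 5 FPKM. ITGB1 sits near 220 FPKM in both groups, while ITGA4 and ITGA6 show the widest gaps.

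The fibronectin and VCAM1 receptor subunit alpha4 differed most. ITGA4 (ENSGALG00000008978) was at 20.6 FPKM in posterior and 54.7 FPKM in anterior half-sclerotomes. In the authors' deposited table it was thus 2.65-fold lower in posterior, a log2 ratio of -1.41 with q = 0.00139. Of tested rows at or over 5 FPKM, 1.72% had a larger log2 difference in either direction. Among the 7 alpha subunits taken, it was the most abundant in anterior half-sclerotomes and the fourth in posterior ones. The locus given for ITGA4 is on chromosome 7 of galGal4 from 13767734 to 13852740. The table gives the same locus to CERKL, a ceramide kinase-like gene, which was at 0.345 FPKM in posterior and 0.836 FPKM in anterior and was not tested.

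ITGA9 went the other way. This gene (ENSGALG00000012238), which encodes the tenascin-C receptor subunit alpha9, was at 23.7 FPKM in posterior and 14.6 FPKM in anterior half-sclerotomes. It was the 1 called subunit that was higher in posterior, by 1.62-fold (log2 ratio 0.70, q = 0.00139 in the authors' deposited table). Alpha4 and alpha9 form a subfamily of their own among integrin alpha subunits. ITGA4 over ITGA9 was 0.869 in posterior and 3.74 in anterior half-sclerotomes, so ITGA9 was the more abundant of the pair in posterior tissue and ITGA4 in anterior tissue. The locus given for ITGA9, on chromosome 2 from 49290259 to 49510044, is shared with a row without a symbol that is listed at 0 in both groups.

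The laminin receptor subunit alpha6 was also lower in posterior tissue. ITGA6 (ENSGALG00000009362, chromosome 7 from 17214612 to 17252865) was at 16.0 FPKM in posterior and 38.4 FPKM in anterior half-sclerotomes. It was 2.40-fold lower in posterior (log2 ratio -1.26, q = 0.00139 in the authors' deposited table). Alpha6 can pair with beta1 or with beta4, the subunit of epithelial hemidesmosomes. ITGB4 was at 1.20 FPKM in posterior and 1.58 FPKM in anterior half-sclerotomes and was not called (q = 0.664 in the authors' deposited table). ITGA6 was thus 13.3 times as abundant as ITGB4 in posterior and 24.2 times in anterior half-sclerotomes. ITGB4 shares its locus with GALK1, a galactokinase gene.

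Both RGD receptor alpha subunits at or over 5 FPKM were lower in posterior half-sclerotomes, by smaller ratios, while ITGA5 had no row. ITGA8 (ENSGALG00000008747, chromosome 2 from 20218013 to 20318200), whose beta1 pair binds nephronectin, was at 5.70 FPKM in posterior and 9.78 FPKM in anterior. This gene was 1.72-fold lower in posterior (log2 ratio -0.78, q = 0.00139 in the authors' deposited table). ITGAV (ENSGALG00000002655, chromosome 7 from 1298618 to 1342313) was at 23.2 FPKM in posterior and 31.1 FPKM in anterior. Its difference was the smallest of the 7 called, 1.34-fold lower in posterior (log2 ratio -0.42, q = 0.0332 in the authors' deposited table). A microRNA row listed at 0 in both groups shares the ITGAV locus.

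The beta3 and beta5 subunits, which share alphaV as partner, were lower in posterior half-sclerotomes as well. ITGB3 (ENSGALG00000000379, chromosome 27 from 2302640 to 2319626), the vitronectin receptor subunit, was at 15.9 FPKM in posterior and 25.6 FPKM in anterior. It was 1.61-fold lower in posterior (log2 ratio -0.69, q = 0.00139 in the authors' deposited table). ITGB5 (ENSGALG00000011778, chromosome 7 from 27374149 to 27415070), the other vitronectin receptor subunit, was at 30.8 FPKM in posterior and 45.6 FPKM in anterior. Its level was 1.48-fold lower in posterior (log2 ratio -0.57, q = 0.00371 in the authors' deposited table). Summed, ITGB3 and ITGB5 stood at 2.01 FPKM per FPKM of ITGAV in posterior and 2.29 in anterior half-sclerotomes. AlphaV also pairs with beta1, which is given below. Its partners beta6 and beta8, whose pairs activate latent TGF-beta, were low. ITGB8 was at 2.04 FPKM in posterior and 2.01 FPKM in anterior (q = 0.996 in the authors' deposited table). ITGB6, at 0.197 FPKM in posterior and 0.412 FPKM in anterior, was not tested.

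Collagen receptor subunits gave no call. ITGA1 (ENSGALG00000014891, chromosome Z from 15630610 to 15707360) was at 34.7 FPKM in posterior and 39.3 FPKM in anterior half-sclerotomes (log2 ratio -0.18, q = 0.674 in the authors' deposited table). Among the 7 alpha subunits taken, ITGA1 was the most abundant in posterior tissue and the second in anterior tissue. ITGA11 (ENSGALG00000008007, chromosome 10 from 18641302 to 18665906) was at 6.57 FPKM in posterior and 4.10 FPKM in anterior. Its log2 ratio of 0.68 was close to that of ITGA9, but q was 0.469 in the authors' deposited table. ITGA11 has the lowest mean of the 10 genes and shares its locus with FEM1B, which was at 65.7 FPKM in posterior and 62.4 FPKM in anterior, and with a microRNA row. ITGA2, which starts 13.8 kb beyond the end of ITGA1, was at 2.78 FPKM in posterior and 3.12 FPKM in anterior (q = 0.845 in the authors' deposited table).

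**Figure D2:**
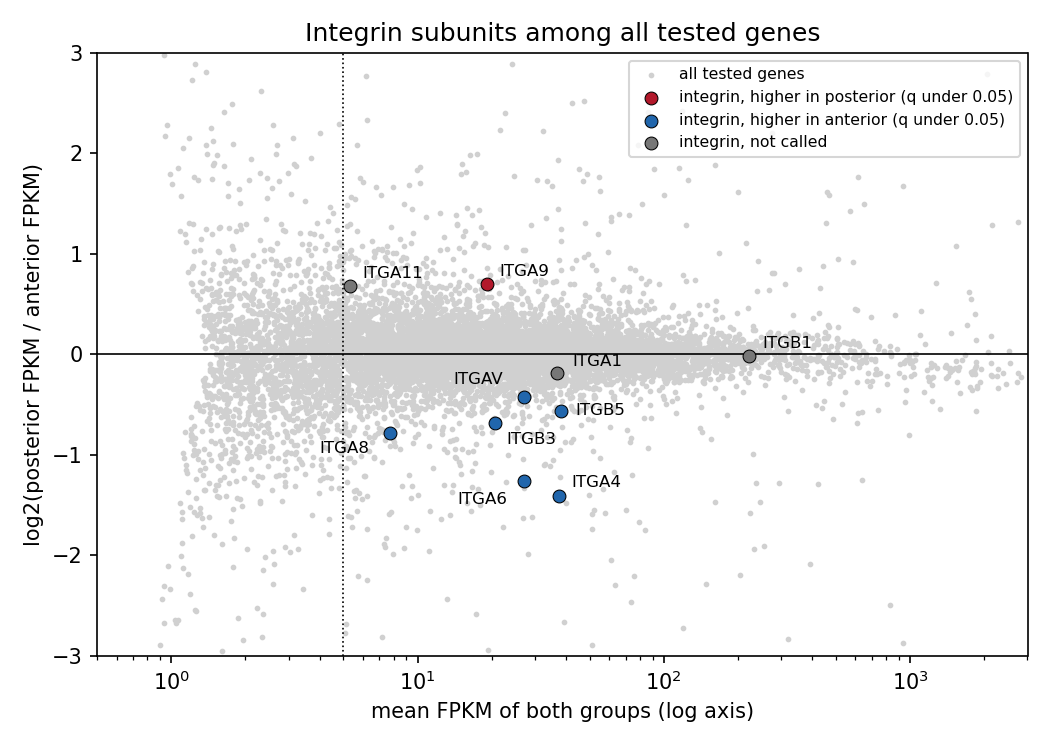
The log2 ratio of posterior over anterior FPKM against mean FPKM (log axis) for 10473 tested genes with a finite ratio in grey, of which 82 lie outside the plotted range. Larger circles are the 10 integrin subunits, coloured by call in the authors' deposited table, and the dotted line is at 5 FPKM. ITGA4 and ITGA6 lie lowest, at -1.41 and -1.26, and ITGA9 stands at 0.70.

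The beta1 gene, the common partner of these alpha subunits, was not called. ITGB1 (ENSGALG00000007145, chromosome 2 from 13975831 to 14017232) was at 221 FPKM in posterior and 224 FPKM in anterior half-sclerotomes. Its log2 ratio was -0.02, with q = 0.975 in the authors' deposited table, and 95.7% of tested rows had a lower mean level. Of tested rows at or over 5 FPKM, 8.06% had a smaller log2 difference. No interval of the difference can be given from 1 value per group, and this q does not show that the levels are alike. ITGB1 made up 82.6% of the summed FPKM of the 3 beta subunits in posterior and 75.9% in anterior half-sclerotomes.

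All 7 alpha subunits can pair with beta1, and their FPKM summed to 130 in posterior and 192 in anterior half-sclerotomes. Alpha subunits without a row are not in this sum. That sum was 0.589 FPKM per FPKM of ITGB1 in posterior and 0.856 in anterior. Without ITGA4 and ITGA6, the other 5 alpha subunits summed to 93.9 FPKM in posterior and 98.9 FPKM in anterior, or 0.424 in posterior and 0.441 in anterior per FPKM of ITGB1. The order of the alpha subunits differed too. In posterior half-sclerotomes it ran ITGA1, ITGA9, ITGAV, ITGA4, ITGA6, ITGA11 and ITGA8, and in anterior half-sclerotomes ITGA4, ITGA1, ITGA6, ITGAV, ITGA9, ITGA8 and ITGA11. With no spread per group, neighbours in either order cannot be tested against each other. ITGA4 made up 15.8% of the alpha sum in posterior and 28.5% in anterior half-sclerotomes, ITGA6 12.3% in posterior and 20.0% in anterior, and ITGA9 18.2% in posterior and 7.62% in anterior. ITGAV held a similar share, at 17.8% in posterior and 16.2% in anterior. Transcript levels say nothing of how many pairs reach the cell surface.

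**Figure D3:**
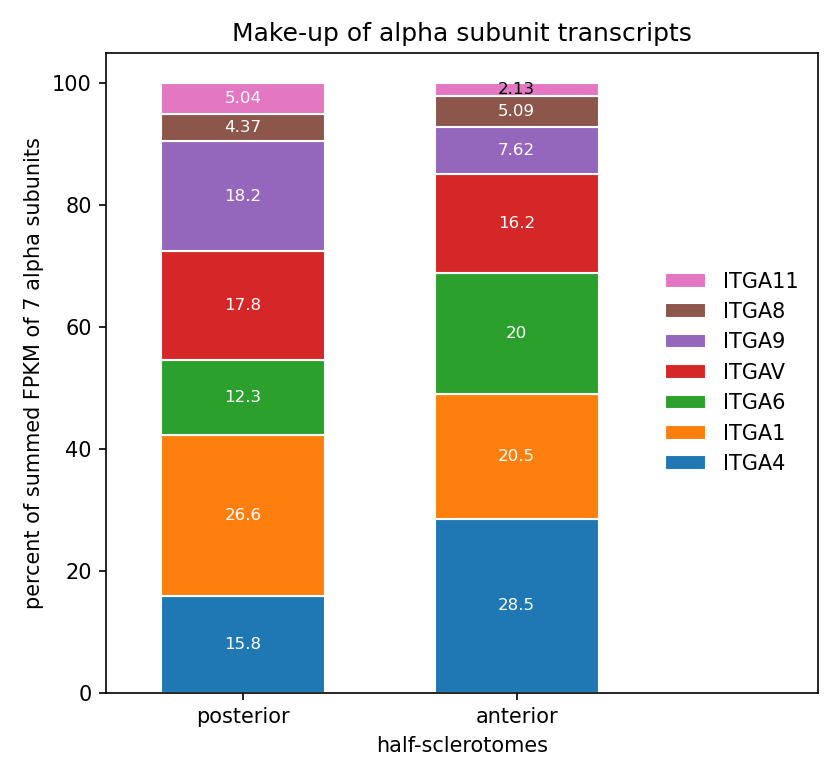
Share of each of 7 alpha subunit genes in their summed FPKM (percent), for posterior half-sclerotomes on the left and anterior half-sclerotomes on the right, from 1 value per group. ITGA9 takes 18.2% in posterior and 7.62% in anterior, and ITGA4 takes 15.8% in posterior and 28.5% in anterior.

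Several of the lower subunits share a chromosome. On chromosome 7 lie 4 of the 10 subunits, ITGAV, ITGA4, ITGA6 and ITGB5, and all 4 were lower in posterior half-sclerotomes. They are not neighbours, since the closest pair, ITGA4 and ITGA6, is 3.36 Mb apart and the other gaps are 12.4 and 10.1 Mb. Of 354 tested rows on this chromosome, 22 (6.21%) were lower and 10 (2.82%) higher in posterior in the authors' deposited table, 9.04% in all. The same chromosome also holds the low subunit genes ITGB2 and ITGB6.

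Among the genes that encode fibronectin and other RGD ligands, calls went both ways, with 2 higher and 3 lower in posterior of 11 tested. That is 45.5% called, beside 7.07% of all tested rows. Fibronectin itself (fn1) was at 96.5 FPKM in posterior and 125 FPKM in anterior half-sclerotomes (log2 ratio -0.37, q = 0.0444 in the authors' deposited table). NPNT, which encodes the alpha8beta1 ligand nephronectin, was at 6.77 FPKM in posterior and 9.86 FPKM in anterior (q = 0.0231 in the authors' deposited table). CYR61, a secreted matricellular protein, was at 21.3 FPKM in posterior and 31.7 FPKM in anterior, with q = 0.0264 in the authors' deposited table. Higher in posterior were MFGE8, a ligand of alphaVbeta3 and alphaVbeta5, at 34.0 FPKM in posterior and 19.1 FPKM in anterior, and VWF, made by endothelial cells, at 2.45 FPKM in posterior and 0.620 FPKM in anterior. Both had q = 0.00139 in the authors' deposited table. VTN, which encodes vitronectin, was at 12.0 FPKM in posterior and 15.2 FPKM in anterior and was not called (q = 0.411 in the authors' deposited table). So ITGA8 and NPNT were both lower in posterior, whereas ITGAV, ITGB3 and ITGB5 were lower and MFGE8 higher.

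Ligands of alpha9 and alphaV outside that list also differed, with 1 of 5 tested higher and 2 lower in posterior. That is 60.0% called, beside 7.07% of all tested rows. TNC, which encodes tenascin-C, was at 10.7 FPKM in posterior and 67.8 FPKM in anterior half-sclerotomes, and OSF-2, which encodes periostin, at 27.0 FPKM in posterior and 125 FPKM in anterior. SVEP1, a large matrix protein that binds alpha9beta1 in mammals, was at 4.28 FPKM in posterior and 2.28 FPKM in anterior. Each of these genes had q = 0.00139 in the authors' deposited table. ITGA9 was thus higher where SVEP1 was higher and TNC lower. ADAM9, a membrane metalloprotease, was at 24.1 FPKM in posterior and 25.5 FPKM in anterior, with q = 0.886 in the authors' deposited table. VCAM1, the alpha4beta1 ligand of vascular cells, was at 0.0564 FPKM in posterior and 0.0195 FPKM in anterior and was not tested.

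Of 5 tested laminin chains, the ligands of alpha6, 1 was higher and 1 lower in posterior, while 7.07% of all tested rows were called. The laminin alpha chain genes LAMA1 and LAMA5 had no row, so their levels are not known. LAMB1 was at 207 FPKM in posterior and 220 FPKM in anterior half-sclerotomes and LAMC1 at 98.1 FPKM in posterior and 94.1 FPKM in anterior, with q = 0.854 and 0.917 in the authors' deposited table. LAMA4, a laminin alpha chain of vessels and nerves, was at 1.24 FPKM in posterior and 4.85 FPKM in anterior, and LAMC3 at 6.44 FPKM in posterior and 3.28 FPKM in anterior. Both had q = 0.00139 in the authors' deposited table.

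Collagen genes were called in 10 of 15 tested, 5 in each direction, beside collagen receptor subunits with no call. That is 66.7% called, against 7.07% of all tested rows. COL4A1 and COL4A2, which encode basement membrane collagen, were at 88.7 and 76.2 FPKM in posterior and at 66.2 and 58.2 FPKM in anterior half-sclerotomes (q = 0.0176 and 0.0326 in the authors' deposited table). The type VI collagen genes COL6A1 and COL6A2 and the fibrillar collagen gene COL5A1 were also higher in posterior, with log2 ratios of 0.78, 1.11 and 0.41. COL2A1, the main collagen of cartilage, was at 343 FPKM in posterior and 487 FPKM in anterior (q = 0.00139 in the authors' deposited table). The fibrillar collagen genes COL5A2 and COL11A1 and the cartilage collagen genes COL9A1 and COL9A3 were likewise lower in posterior, with log2 ratios of -0.70, -0.76, -1.79 and -0.63. COL1A2, a chain of the type I collagen of connective tissue, was at 246 FPKM in posterior and 231 FPKM in anterior, with q = 0.838 in the authors' deposited table. Over the 4 ligand lists, 9 genes were higher and 11 lower in posterior of 36 tested, with a median log2 ratio of -0.09. Of all tested rows, 3.57% were higher and 3.50% lower. COL11A1 and LAMC1 share their locus with another row, as do LTBP1, TLN2, NEDD9, FLI1 and TCF15, named below.

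Genes of latent TGF-beta, a cargo of alphaV integrins, gave 1 higher and 1 lower call in posterior of 5 tested. Among all tested rows, 7.07% were called. LTBP1, a binding protein that anchors latent TGF-beta in matrix, was at 67.5 FPKM in posterior and 41.6 FPKM in anterior half-sclerotomes (q = 0.00139 in the authors' deposited table). LTBP2, of the same family, was at 8.70 FPKM in posterior and 12.0 FPKM in anterior, with q = 0.0239 in the authors' deposited table. The TGF-beta genes TGFB2, at 29.1 FPKM in posterior and 38.3 FPKM in anterior, and TGFB3, at 39.7 FPKM in posterior and 44.5 FPKM in anterior, were not called (q = 0.0619 and 0.686 in the authors' deposited table).

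Inside the cell, integrin tails are tied to actin by talin, kindlin, ILK and their partners. Of 36 tested genes of this cytoplasmic complex, 6 were lower and 1 was higher in posterior half-sclerotomes (19.4% called, beside 7.07% of all tested rows), and the median log2 ratio was -0.06. The talin genes TLN1 and TLN2 were at 30.0 and 20.4 FPKM in posterior and at 31.1 and 21.3 FPKM in anterior, with q = 0.927 and 0.913 in the authors' deposited table. FERMT2, which encodes kindlin-2, was at 140 FPKM in posterior and 128 FPKM in anterior, and FAK, the focal adhesion kinase gene, at 50.0 FPKM in posterior and 51.3 FPKM in anterior, with q = 0.728 and 0.950 in the authors' deposited table. ACTN4, the actin crosslinker of highest level in the list, was at 140 FPKM in both groups.

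Genes for signalling and for actin linkage were among the lower ones of this complex. NEDD9, a scaffold for FAK and SRC signalling known from avian and mammalian neural crest, was at 9.14 FPKM in posterior and 20.9 FPKM in anterior half-sclerotomes, the SRC family kinase gene FYN at 23.2 FPKM in posterior and 48.1 FPKM in anterior, and VCL, which encodes the talin partner vinculin, at 45.6 FPKM in posterior and 75.1 FPKM in anterior. These genes had q = 0.00139 in the authors' deposited table. Smaller ratios were those of TNS3, a tensin, at 16.8 FPKM in posterior and 22.5 FPKM in anterior (q = 0.0290) and ILK, the integrin-linked kinase gene, at 34.8 FPKM in posterior and 45.8 FPKM in anterior (q = 0.0392), both in the authors' deposited table. KANK1, which binds talin at the rim of adhesions, was the gene higher in posterior, at 20.5 FPKM against 8.35 FPKM in anterior (q = 0.00139 in the authors' deposited table). Of the list of membrane partners of integrins, 1 of 9 tested genes was called (11.1%, which is 1 gene, beside 7.07% of all tested rows). That was MDK, at 797 FPKM in posterior and 1111 FPKM in anterior (q = 0.00139 in the authors' deposited table). MDK encodes the secreted growth factor midkine, so no membrane protein of the list was called. BSG, which encodes basigin, and the tetraspanin gene TSPAN3 were at 244 and 175 FPKM in posterior and at 245 and 179 FPKM in anterior.

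**Figure D4:**
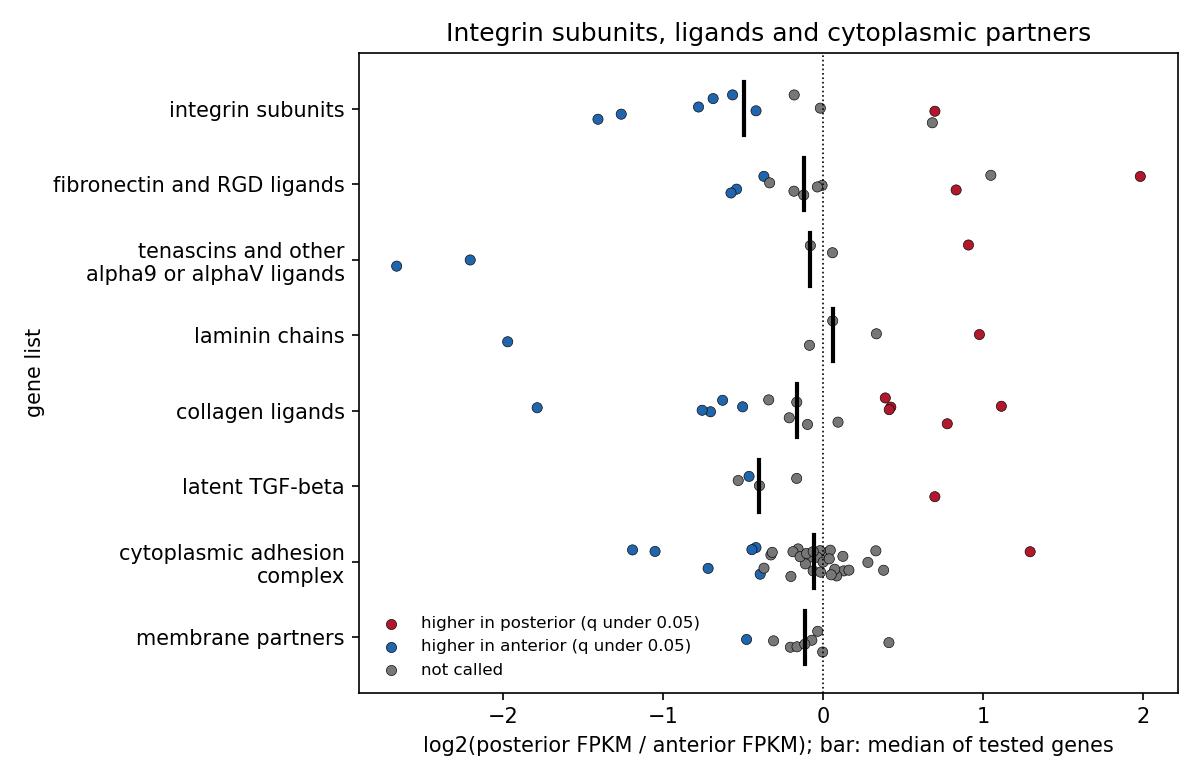
Each point is a tested gene placed by its log2 ratio of posterior over anterior FPKM, coloured by call in the authors' deposited table, and black bars are medians of each list. The integrin subunits have a median of -0.49, against -0.06 for the cytoplasmic complex and -0.12 for the membrane partners. Genes of latent TGF-beta have a median of -0.399, so a median well below 0 is not particular to the integrins.

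Markers of other cells moved with both groups, and their part in the integrin differences was not tested. Of 16 tested neural crest and Schwann precursor genes, 8 were lower and 1 higher in posterior half-sclerotomes. That is 56.25% called, beside 7.07% of all tested rows. The list summed to 262 FPKM in posterior and 513 FPKM in anterior. SOX10, the defining gene of that lineage, was at 4.92 FPKM in posterior and 103 FPKM in anterior, which is a far wider gap than that of any integrin subunit. TFAP2A, TFAP2B and CDH7 had log2 ratios of -5.31, -5.03 and -5.11, and the row of CDH19, which was not tested, was listed at 0 in posterior and at 0.258 FPKM in anterior. The higher call was EDNRA, an endothelin receptor gene, at 14.8 FPKM in posterior and 9.81 FPKM in anterior (q = 0.0138 in the authors' deposited table). Abundant members that were not called were NGFR, at 79.3 FPKM in posterior and 80.8 FPKM in anterior, Sox9, at 69.7 FPKM in posterior and 62.9 FPKM in anterior, and ETS1, at 62.6 FPKM in posterior and 50.9 FPKM in anterior. Sums here and for the lists that follow are over all rows of a list, tested or not. Of 13 tested dermomyotome and myotome genes, 8 were lower and 0 higher in posterior (61.5% called), with PAX3, MEF2C and CHRNA1 at log2 ratios of -3.06, -1.93 and -1.74. Their list summed to 102 FPKM in posterior and 210 FPKM in anterior. Neuron genes gave 2 lower calls (TUBB3 and RET) and 1 higher call (DCX) of 5 tested (60.0% called). They summed over the list to 75.7 FPKM in posterior and 103 FPKM in anterior. The median log2 ratios of these lists were -3.07, -1.35 and -0.30. A median below 0 was not particular to them. Leukocyte, surface ectoderm and thrombocyte genes, given below, had medians of -0.48, -0.25 and -0.02, and red blood cell genes of 0.01.

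Of 21 tested endothelial genes, 10 were higher and 0 lower in posterior half-sclerotomes (47.6% called, beside 7.07% of all tested rows). Summed levels were 313 FPKM in posterior and 233 FPKM in anterior, with no gene at 0. ESM1, VWF and ESAM had log2 ratios of 2.42, 1.98 and 0.91, and CDH5 of 0.72. KDR, PECAM1, FLT4 and FLI1, which were not called, had log2 ratios of 0.02, -0.03, -0.05 and -0.14. Sclerotome genes gave 5 higher and 0 lower calls in posterior of 8 tested (62.5% called), led by TCF15, GGMOXr1 and MEOX2. Their list summed to 1064 FPKM in posterior and 784 FPKM in anterior. All 3 tested anterior markers were lower in posterior (summed 30.3 FPKM in posterior and 123 FPKM in anterior). Of 9 tested posterior markers, 7 were higher and 1 lower (88.9% called), with sums of 829 FPKM in posterior and 209 FPKM in anterior. EPHA4 was the third anterior marker, and CDH13 and Sema3F led the posterior ones after UNCX. The posterior marker that was lower was DLL1, at 1.29 FPKM in posterior and 3.16 FPKM in anterior (q = 0.00261 in the authors' deposited table). Whether ITGA9 transcripts came from endothelial or sclerotome cells was not tested.

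The blood cell integrin genes ITGB2 and ITGA2B were under 1 FPKM. ITGB2, the beta subunit of leukocytes, was at 0.359 FPKM in posterior and 0.343 FPKM in anterior half-sclerotomes, and PTPRC, the pan-leukocyte gene, at 0.516 FPKM in posterior and 0.567 FPKM in anterior. Neither gene was tested by the authors. ITGA2B, the thrombocyte subunit that pairs with beta3, falls outside the symbol pattern used. It was at 0.630 FPKM in posterior and 0.960 FPKM in anterior, while ITGB3 was at 15.9 FPKM in posterior and 25.6 FPKM in anterior. The ITGA2B row spans only 21 to 1625 of the scaffold JH375701.1, so its level may not stand for the whole gene. Leukocyte (5 tested), thrombocyte (4), red blood cell (4) and surface ectoderm genes (4) gave 0 calls at q under 0.05 in the authors' deposited table, and at an unadjusted p under 0.05 they had 0, 0, 0 and 1. With 7.07% of all tested rows called, 0 calls among so few genes does not show that their levels are alike. Leukocyte genes summed to 12.5 FPKM in posterior and 15.1 FPKM in anterior, and thrombocyte genes to 15.6 FPKM in posterior and 15.0 FPKM in anterior. Red blood cell genes summed to 650 FPKM in posterior and 737 FPKM in anterior, and surface ectoderm genes to 14.6 FPKM in posterior and 18.5 FPKM in anterior. The globin gene HBG1 was at 434 FPKM in posterior and 512 FPKM in anterior (q = 0.401 in the authors' deposited table).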

How the data were processed

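Per the labels' protocols, poly(A) RNA was selected from about 200 ng of total RNA, made into stranded libraries and read as 50 nt single-end reads. Tools named in the submitters' processing notes are Cuffdiff, Cufflinks 2.2.1, TopHat2 2.1.0 and FastQC, with the build galGal4. Per the file headers, the authors deposited 1 FPKM value per group, a p-value and a q-value per gene. Annotation, counting options and scaling between libraries were not stated in those sources. The table has no counts, so the depth is unknown. Ratios were computed here as posterior over anterior FPKM, with no pseudocount. A gene was called at q under 0.05 in the authors' deposited table. The authors marked 6579 rows as not tested. Benjamini-Hochberg adjustment of the deposited p-values gave the deposited q to within 5.27e-07. Starts are the file's plus 1. Integrin rows that share a locus with another row have the same start and end as that row. Their positions, and gaps taken from them, are thus those of the shared locus and not of the single gene.

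The members and the 26 gene lists were chosen with earlier results of these data known. Lists held 290 different genes, of which 241 had a row and 188 a tested row, with 12 matched through a RefSeq synonym (assembly GRCg7b, names only). Synonyms that led to another gene were dropped after their matches were seen. Lists share members. Named were all integrin rows, each called gene of the ligand, TGF-beta, cytoplasmic and membrane lists with the 3 of highest level, and in cell type lists up to 3 called genes of largest ratio with set defining genes. A called gene of the cytoplasmic list is counted but not reported here by name. Python 3.11.15, numpy 2.4.6 and pandas 2.3.3 were used.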

Additional observations from a re-analysis of the deposited data

How the results depend on the processing

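The integrin counts were recomputed at q under 0.01 and under 0.1, with a ratio of at least 1.5, with adjustment over rows of at least 1 FPKM, after dividing by the median ratio, and at a minimum mean of 1, 10 or no FPKM. ITGA9 stayed the 1 subunit higher in posterior under each of these, and between 4 and 6 subunits were lower. Without subunits whose locus overlaps another row, 0 were higher and 4 lower in posterior, since ITGA9, ITGA4 and ITGAV leave by construction. At q under 0.01, 245 of all tested genes were lower in posterior, against 368 at q under 0.05, and 251 were higher, against 376. The median log2 ratio of the subunits lay between -0.50 and -0.40, and a pseudocount of 1 FPKM moved a subunit by at most 0.11. Neither the pseudocount nor the rescaling could change the direction of a subunit. A pseudocount keeps the sign of each ratio. Dividing by the median ratio shifted log2 ratios by only 0.005, against -0.018 for ITGB1, the subunit nearest 0. That rescaling also kept the deposited q, so the integrin counts could not move under it. No paired analysis was possible because the table holds 1 value per group, and for the same reason leaving out each replicate could not be run. The depth is unknown, so no detection limit can be given for the low subunits.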

Other observations

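A gene row whose name links it to integrins stood far above the family. ITGB1BP3 (ENSGALG00000021253, chromosome 10 from 10218393 to 10220507) was at 1454 FPKM in posterior and 1597 FPKM in anterior half-sclerotomes (q = 0.699 in the authors' deposited table). In these data only its symbol ties it to the beta1 subunit, and no function is given with the row. ITGB1BP3 was chosen after its values were seen. ITGB1BP1, which encodes a binder of the beta1 tail, was at 17.7 FPKM in posterior and 19.2 FPKM in anterior (q = 0.909 in the authors' deposited table). ITGB3BP, which encodes a centromere protein also named for the beta3 subunit, was at 22.0 FPKM in posterior and 21.4 FPKM in anterior (q = 0.960 in the authors' deposited table). ITGB1BP2, known as melusin and made in striated muscle of mammals, was at 0.374 FPKM in posterior and 1.20 FPKM in anterior and was not tested. ITGBL1, an integrin-like gene without a transmembrane part, was at 0.161 FPKM in posterior and 0.204 FPKM in anterior and was not tested either.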
